A study of Mus musculus with 36 samples.

Results

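Transcripts of 7 genes that mark the alveolar macrophage were followed through the lungs of mice given titanium dioxide nanoparticles (Tube TiO2NPs): Ear1, Ear2, Plet1, Pparg, Cidec, Krt79 and Atp6v0d2. Probes were assigned to these genes through the RefSeq accession in the array files, and the probe with the highest mean signal stood for each gene. This gave 7 of the 36799 gene names on the arrays. All 7 passed the filter on dim probes, and their probes were well above background in the lung channel on 36 of 36 arrays.

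The alveolar macrophage is the resident phagocyte of the airspace, where it clears surfactant and inhaled particles. GM-CSF made by the alveolar epithelium, together with TGF-beta, switches on PPAR-gamma in its fetal precursor, and PPAR-gamma in turn drives the lipid handling of the mature cell. In mice the identity of this cell is read from a group of transcripts that other macrophages carry at low levels, to which these genes belong. PPAR-gamma and CIDEC are also hallmarks of the adipocyte, a cell that a piece of lung tissue can hold.

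The samples were lung RNA of 29 female C57BL/6 mice aged 5 to 7 weeks, on 36 arrays, each hybridised against a reference RNA of 11 mouse cell lines. A mouse received Tube TiO2NPs in 40 µl into the trachea once, at a dose of 0, 18, 54 or 162 µg, and the lung was taken at day 1 or day 28. The labels name the 0 µg mice controls and do not say what the suspension held for them. At day 1 there were 4, 3, 3 and 4 mice at 0, 18, 54 and 162 µg, and at day 28 there were 3, 4, 4 and 4. For 1 mouse, replicate 1 at 162 µg on day 28, the title says day 1 and the time label day 28. It was kept at day 28, and 7 mice measured on 2 arrays were averaged. Every level below is log2 of lung signal (Cy5) over reference signal (Cy3), so levels of different genes cannot be set against each other. RNA came from random pieces of lung, per the labels, and in bulk RNA fewer cells of a type and less RNA per cell cannot be told apart.

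Some lung samples carried RNA of neighbouring tissue. On 12 arrays, called muscle arrays here, the mean log2 Cy5 over 17 skeletal muscle genes was at least 10.19, against at most 7.75 on the other 24. They belonged to 4 of 4 control mice at day 1 and to 1 of 3, 1 of 3 and 1 of 4 mice at 18, 54 and 162 µg. At day 28 they belonged to 0 of 3 control mice, 1 of 4 at 18 µg, 3 of 4 at 54 µg and 0 of 4 at 162 µg. Of these 12, 7 also carried squamous epithelium transcripts. For control replicate 1 at day 1 only 1 of 2 arrays was a muscle array. Arrays of 1 mouse also differed where both or neither were muscle arrays. At 54 µg on day 1, replicate 1 had no muscle array and read 4.769 and 5.873 for Plet1 and 1.831 and 2.842 for Atp6v0d2. Replicate 1 at 162 µg on day 1, also without one, read 1.755 and 4.171 for Cidec. On 2 muscle arrays, replicate 1 at 54 µg on day 28 read 7.19 and 6.175 for Ear2. Other pairs were closer, such as 6.335 and 6.408 for Ear2 in replicate 1 at 162 µg on day 28. Between 48.6% and 62.2% of probes were well above background per array, and 23256 genes were tested.

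Ear1 and Ear2 encode eosinophil-associated ribonucleases, small secreted RNases that mouse alveolar macrophages also make. The genes are close copies, and the similarity reaches upstream of the transcript. The 250 bases before the annotated start of each are given because the 2 transcripts moved together from mouse to mouse. Plet1, which encodes a GPI-anchored protein of the epithelial surface, is shown beside them as an unrelated member. Sequences are from RefSeq on GRCm38.p6, 5′ to 3′ on the strand of the gene, at chr14:43819640-43819889 (minus) for Ear1, chr14:44102404-44102653 (plus) for Ear2 and chr9:50494275-50494524 (plus) for Plet1. Capitals mark matches to the motifs named in the next paragraph.
Ear1: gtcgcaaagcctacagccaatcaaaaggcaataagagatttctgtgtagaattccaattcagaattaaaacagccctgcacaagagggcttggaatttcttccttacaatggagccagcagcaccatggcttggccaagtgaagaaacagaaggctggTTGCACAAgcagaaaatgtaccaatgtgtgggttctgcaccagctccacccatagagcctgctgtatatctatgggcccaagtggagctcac
Ear2: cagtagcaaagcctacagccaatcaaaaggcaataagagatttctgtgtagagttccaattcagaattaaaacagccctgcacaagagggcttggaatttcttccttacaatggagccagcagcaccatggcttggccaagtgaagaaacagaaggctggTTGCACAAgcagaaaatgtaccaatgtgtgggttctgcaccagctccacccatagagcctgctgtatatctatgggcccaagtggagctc
Plet1: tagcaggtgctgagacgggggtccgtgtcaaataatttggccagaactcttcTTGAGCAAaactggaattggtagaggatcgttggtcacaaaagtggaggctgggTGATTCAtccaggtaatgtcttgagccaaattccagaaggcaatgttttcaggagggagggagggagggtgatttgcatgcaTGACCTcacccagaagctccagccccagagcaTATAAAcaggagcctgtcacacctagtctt

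In a global alignment, the Ear1 and Ear2 windows were identical at 246 of 252 aligned positions (97.6%). The Plet1 window matched that of Ear1 at 50.7%, a value near those of the other unrelated pairs. Short hybridisation probes may not tell such close copies apart, so a value of Ear1 or Ear2 may hold signal of a relative. Each Ear window held 1 match to the C/EBP motif TTGCNNAA, which 9.56% of 32851 promoter windows of this length hold on either strand. The Plet1 window held 1 match to it as well, along with 1 to AGGTCA (the unit bound by nuclear receptors such as PPAR-gamma, in 14.0% of windows), 1 to the AP-1 motif TGANTCA (6.75%) and 1 to TATAAA (12.4%). None of the member windows held the PU.1 motif GAGGAAG, which 10.6% of windows hold. Windows before 2 of the 3 annotated starts of Pparg held AGGTCA, and windows before the 2 starts of Cidec did not. The tables used here hold no such window for Atp6v0d2. These are matches of letters only.

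The comparison of each dose with the controls of its day asks how the lung's content of these transcripts changed after instillation. At 162 µg on day 1 the ribonuclease Ear2 fell 1.97-fold, and it was the only member called at that time. Of all genes tested, 1.7% were called in that comparison and 0.193% were called and lower. Ear1 and Krt79 were also lower in every treated mouse than in any control mouse, without passing the adjusted threshold. The groups did not overlap for 3 of the 7 members, against 5.96% of all genes tested. The median log2 change was -0.67 over the members and 0.01 over all genes. Of the 7 members, 3 had an unadjusted p under 0.05, as did 3009 of the 23256 genes tested.

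Ear2 stood at 6.54, 6.68, 6.56 and 6.70 in the 4 control mice of day 1 and at 5.74, 5.36, 5.65 and 5.80 in the 4 mice at 162 µg. The highest treated mouse was well below the lowest control. The log2 change was -0.98 (SE 0.22, adjusted p = 0.0152 by limma with Benjamini-Hochberg adjustment over all genes). At 54 µg Ear2 was 5.97, 5.58 and 6.59, with 2 mice low and 1 among the controls, a log2 change of -0.57 (adjusted p = 0.609). At 18 µg it was 6.68, 6.80 and 6.52, on both sides of the controls. The group means at 0, 18, 54 and 162 µg were 6.62, 6.67, 6.05 and 5.64, and only the top dose passed the threshold.

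At day 28 Ear2 at 162 µg was 6.37, 6.65, 6.43 and 7.21, against 6.57, 7.02 and 7.03 in the controls, and the groups overlapped. Its log2 change there was -0.21 (SE 0.24, 95% interval -0.70 to 0.28). The day 28 change differed from the day 1 change by 0.77 (SE 0.32), with an unadjusted p of 0.0242 and an adjusted p of 1.00, so the difference between days did not pass. At 54 µg and 18 µg on day 28 the group means were 6.47 ± 0.37 and 6.85 ± 0.40 (SD, n = 4 and 4). Over the 8 groups, ordered by mean from 5.64 ± 0.19 (162 µg, day 1) to 6.87 ± 0.26 (0 µg, day 28), no step between neighbours exceeded the larger SD of the pair.

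Ear1 was 4.74, 4.54, 4.52 and 4.34 in the controls of day 1 and 3.62, 4.05, 3.40 and 3.29 at 162 µg. The groups did not overlap, and the log2 change of -0.95 (SE 0.31) was close to that of Ear2 but missed the threshold (adjusted p = 0.148). At 54 µg Ear1 was 4.09, 3.44 and 4.66, and at 18 µg 5.13, 5.11 and 4.41, so the lowest dose was not low against these controls. Without muscle arrays, with 1 control mouse left, the change of Ear1 on day 1 was -0.26 at 18 µg and -1.72 at 162 µg. At day 28 the 3 controls stood close together at 5.06, 5.12 and 5.20. The means were 4.97 ± 0.53, 4.53 ± 0.68 and 4.88 ± 0.52 at 18, 54 and 162 µg (SD, n = 4 each), and no change passed. The control mice of day 28 were all above those of day 1, by 0.59 (SE 0.34, adjusted p = 0.777). Of these controls, 4 of 4 at day 1 and 0 of 3 at day 28 had a muscle array, so day and muscle content cannot be told apart. The 1 non-muscle array of a day 1 control read 5.38, above the day 28 controls. Alternative settings put the difference between days at -0.25 to 0.74. Between the controls, 2 of 7 members (Ear1 and Pparg) did not overlap, against 12.5% of all genes tested.

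Krt79, a type II keratin that also marks alveolar macrophages, was 3.09, 3.55, 3.23 and 3.51 in the controls of day 1. At 162 µg it was 2.44, 2.93, 3.03 and 2.32, all below the lowest control. The log2 change was -0.67 (SE 0.20, adjusted p = 0.102). Krt79 passed in 3 of 21 alternative settings, among them without 162 µg replicate 3 (-0.78, adjusted p = 0.0389). That mouse was on a muscle array, but all 4 controls had a muscle array too, so leaving it out took muscle transcripts from 1 side only. At 54 µg 2 of the values, 2.97 and 2.92, lay under all controls and the other, 3.28, lay among them, a change of -0.29 (adjusted p = 0.745), and at 18 µg the mean was 3.26 ± 0.17 (SD, n = 3). At day 28 the 162 µg mice split into 2.41 and 2.78 against 3.51 and 3.52, with controls of 3.38, 3.45 and 3.49. The lowest of these is the mouse whose labels conflict. At 54 µg on day 28 all 4 mice, at 3.38, 3.36, 2.89 and 3.30, were under the controls, replicate 3 farther than the others, and the change was -0.21 (adjusted p = 0.823). Krt79 was the 1 member without overlap there, against 7.01% of all genes tested. The margin was very small: the highest 54 µg mouse read 3.377 and the lowest control 3.379. The 2 arrays of that control mouse read 3.041 and 3.717.

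The controls of day 1 are the group with the most neighbouring tissue, and its markers moved with this comparison. All 16 skeletal muscle genes measured were lower at 162 µg (median log2 change -2.67), as were all 11 measured adipocyte genes (-1.13), 13 of 14 cardiac muscle genes (-1.24) and all 14 squamous genes (-0.77), though none was called. Over all genes tested, 48.7% were below 0. The mean log2 Cy5 of the skeletal muscle list ran from 10.7 to 13.2 in the controls and from 7.25 to 13.8 at 162 µg. For the adipocyte list it ran from 8.99 to 11.2 and from 7.42 to 11.5. With the muscle and squamous scores of each mouse in the model the change of Ear2 was -1.12 (adjusted p = 0.00621) and that of Ear1 -1.24 (adjusted p = 0.0169). With the adipocyte score in the model, a fit added after seeing the data, they were -1.10 (adjusted p = 0.00253) and -1.20 (adjusted p = 0.00258). Leaving out the muscle arrays kept 1 control mouse, and the changes were -1.32 (adjusted p = 0.0646) and -1.72 (adjusted p = 0.0537). The single non-muscle array of that control mouse read 6.95 for Ear2 and 5.38 for Ear1, and its muscle array 6.12 and 4.11. All 5 slides held 1 array of each of these groups, and slides 1 and 5 held the same pair of mice. The difference on a single slide ran from -1.32 to -0.51 for Ear2 and from -1.64 to -0.49 for Ear1.

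The call of Ear2 was lost in 6 of 21 alternative settings. Besides the fit without muscle arrays, it was lost with the scanner software's processed signals (-0.61, adjusted p = 0.395), with median centring in place of loess (-0.76, adjusted p = 0.435), without control replicate 4 (adjusted p = 0.0519) and without 162 µg replicate 2 (adjusted p = 0.0762). Counting the mouse of conflicting labels at day 1 also ended it (adjusted p = 0.0721).

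Plet1 and Atp6v0d2 were not lower on day 1. Atp6v0d2 encodes the d2 subunit of the vacuolar proton pump, known from osteoclasts and from macrophages that fuse or digest lipid. At 162 µg on day 1 Plet1 was 5.56, 5.76, 4.76 and 5.87 against 4.75, 4.82, 5.95 and 5.53 in the controls, a log2 change of 0.23 (SE 0.26, 95% interval -0.31 to 0.76). Atp6v0d2 was 2.58, 2.88, 1.51 and 2.25 against 1.83, 1.37, 2.14 and 1.64, a change of 0.56 (SE 0.28, adjusted p = 0.404). In both genes the low treated mouse was replicate 3, the 1 mouse at this dose on a muscle array. Atp6v0d2 was also above the control mean in 3 of 3 mice at 54 µg (0.66, adjusted p = 0.634) and in 3 of 3 at 18 µg (0.54, adjusted p = 0.912). All control mice of day 1 had a muscle array, 1 of them on only 1 of 2 arrays. Without muscle arrays, with 1 control mouse left, the change of Plet1 at 162 µg was 0.79 and that of Atp6v0d2 0.22. In that fit the change of Atp6v0d2 was 0.22 at 54 µg and 0.055 at 18 µg.

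At 162 µg on day 28 Plet1 and Atp6v0d2 were the 2 members whose mice stood apart from the controls, both upward. Plet1 was 6.05, 6.28, 6.18 and 6.34 at 162 µg and 5.15, 5.55 and 5.42 in the controls. The log2 change was 0.84 (SE 0.28), a 1.79-fold difference, with an adjusted p of 0.407. Atp6v0d2 was 2.88, 3.25, 2.79 and 2.97 against 1.86, 1.88 and 2.36, a change of 0.93 (SE 0.30, adjusted p = 0.359), or 1.91-fold. No member was called in this comparison by limma, where 0.632% of all genes were. An unadjusted p under 0.05 was reached by 2 members and by 1112 of the 23256 genes tested. The groups did not overlap for 2 of 7 members, against 9.49% of all genes tested.

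These 2 groups held no muscle array, so the values of these mice are the same without them, while the spread that the model estimates is smaller. In the fit without muscle arrays Plet1 passed (SE 0.14, adjusted p = 0.00534), as did Atp6v0d2 (SE 0.19, adjusted p = 0.0278). Both passed too with array quality weights (adjusted p = 0.0249 and 0.0133) and with only these 2 groups in the fit (0.0113 and 0.0213). With the adipocyte score in the model Atp6v0d2 passed (0.91, adjusted p = 0.0216) and Plet1 did not (0.82, adjusted p = 0.0981). On the 4 slides that held arrays of both groups, 2 of them with the same pair of mice, Plet1 was higher by 0.56 to 1.24 and Atp6v0d2 by 0.61 to 1.31. The second, dimmer probe of each gene gave 0.47 and 0.55.

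Set against 54 µg at day 28, both genes were called at 162 µg. Plet1 at 54 µg was 5.28, 5.20, 4.77 and 5.40, every mouse below every mouse at 162 µg, and it rose by 1.05 (SE 0.26, adjusted p = 0.0468), or 2.07-fold. Atp6v0d2 at 54 µg was 2.32, 1.52, 0.90 and 2.09, again with no overlap, and it rose by 1.26 (SE 0.28, adjusted p = 0.0201), or 2.40-fold. These were 2 of 7 members, where 1.02% of all genes were called, 1.01% called and higher, and 7.36% did not overlap. Of the 4 mice at 54 µg, 3 were on muscle arrays, and replicate 3 stood farther above its group's adipocyte score than any other of the 29 mice. Leaving that mouse out gave 0.92 for Plet1 (adjusted p = 0.218) and 0.99 for Atp6v0d2 (adjusted p = 0.135). Without 54 µg replicate 2, or without 162 µg replicate 2 or replicate 4, neither gene passed, and without 54 µg replicate 1 or 162 µg replicate 1 or replicate 3, Atp6v0d2 passed and Plet1 did not. Of 21 alternative settings, Plet1 passed in 4 and Atp6v0d2 in 13. With muscle and squamous scores in the model the values were 0.68 and 0.85 (adjusted p = 0.794 and 0.545), and without muscle arrays, with 1 mouse left at 54 µg, 0.81 and 0.88 (adjusted p = 0.221 and 0.517).

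Over the 8 groups the highest mean of Plet1 was that of 162 µg at day 28 (6.21 ± 0.12, SD, n = 4). It stood 0.72 above the next group, 162 µg at day 1 (5.49 ± 0.50), and this was the only step between neighbours with ranges that did not meet. The other 7 groups ran from 5.16 to 5.49. Atp6v0d2 had its highest mean in the same group (2.97 ± 0.20), 0.56 above 54 µg at day 1 (2.41 ± 0.37), with ranges that met at their ends. Its other means ran from 1.71 to 2.41.

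**Figure D1:**
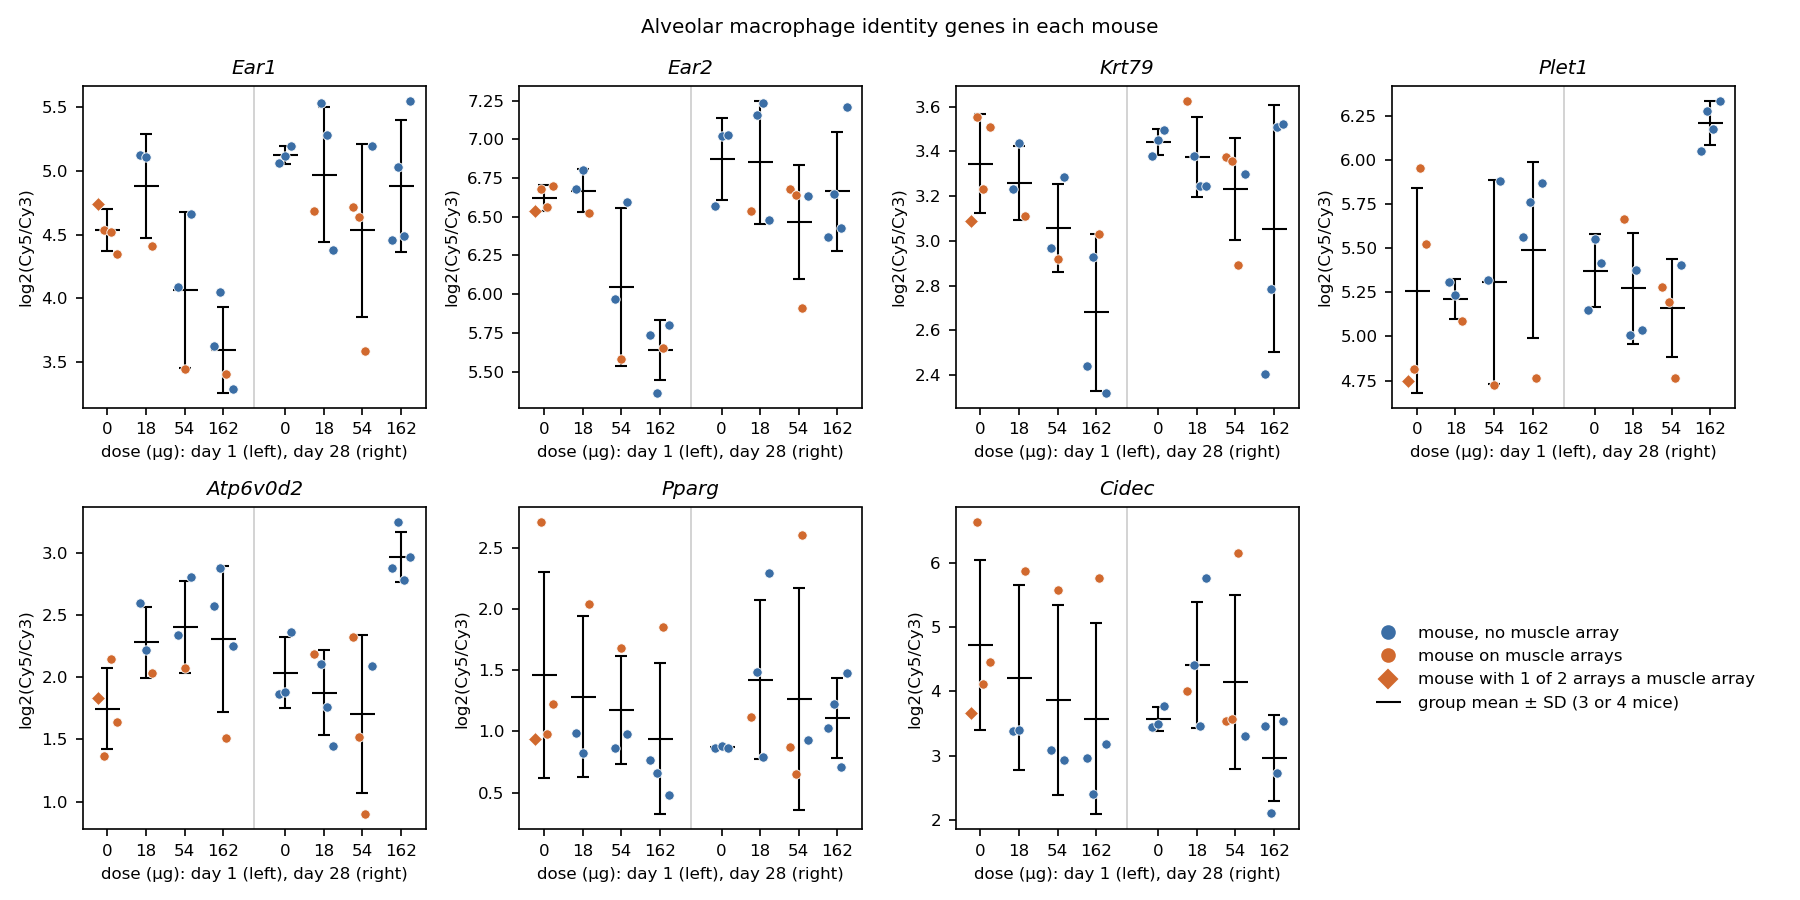
Level of each gene as log2(Cy5/Cy3) (vertical axis) in each mouse by dose, day 1 on the left and day 28 on the right of each panel, with the group mean ± SD. Orange points are mice with a muscle array. Ear2 at 162 µg on day 1 lies between 5.36 and 5.80, under all controls, and Plet1 and Atp6v0d2 at 162 µg on day 28 lie above the controls of that day, while Pparg and Cidec have single high mice in most groups.

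Pparg, the nuclear receptor that sets the alveolar macrophage programme, and Cidec, a lipid droplet protein under its control, passed in no comparison. At 162 µg on day 1 Pparg was 0.77, 0.66, 1.85 and 0.48 against 0.94, 2.71, 0.98 and 1.22 in the controls (log2 change -0.52, SE 0.43, adjusted p = 0.665). Cidec was 2.96, 2.40, 5.76 and 3.18 against 3.66, 6.63, 4.12 and 4.46 (log2 change -1.14, SE 0.80, adjusted p = 0.592). A single high mouse in each group set most of this spread, and the same mice were high for both genes. The 95% interval for Cidec, -2.78 to 0.50, allows a large fall as well as a small rise.

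At day 28 Pparg in the controls was 0.87, 0.89 and 0.87. At 162 µg it was 1.03, 1.22, 0.71 and 1.48, a change of 0.24 (95% interval -0.71 to 1.18). Cidec was 3.44, 3.49 and 3.78 in the controls and 3.46, 2.12, 2.74 and 3.54 at 162 µg, a change of -0.61 (95% interval -2.38 to 1.16). A second Cidec probe gave 0.13 there, so the 2 probes differed in sign. The group means of Pparg ran from 0.87 to 1.46 and those of Cidec from 2.96 to 4.72, and no step between neighbouring groups exceeded the larger SD of the pair.

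The members were also counted at the lower doses and between groups. At 54 µg on day 1, 0 of 7 were called by limma (0.0516% of all genes). Of the members, 2, Ear2 and Atp6v0d2, had an unadjusted p under 0.05 there, as did 1777 of the 23256 genes tested. At 18 µg on day 1, 54 µg on day 28, 18 µg on day 28 and between the controls of day 28 and day 1, 0 of 7 were called and 0 had an unadjusted p under 0.05, and 0% of all genes were called. At 162 µg against 54 µg on day 1 the count was 0 (0.0043% of all genes), also with 0 unadjusted. For the difference between the day 28 and the day 1 change, 0 members passed at 162 µg (0.0258% of all genes; 1 unadjusted, Ear2), at 54 µg (0%; 1 unadjusted, Atp6v0d2) and at 18 µg (0%; 0 unadjusted). For these differences at 162, 54 and 18 µg, 892, 2376 and 1557 of the 23256 genes tested had an unadjusted p under 0.05. The members' median log2 change was -0.29, -0.05, -0.21 and -0.07 at 54 and 18 µg on day 1 and at 54 and 18 µg on day 28.

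**Figure D2:**
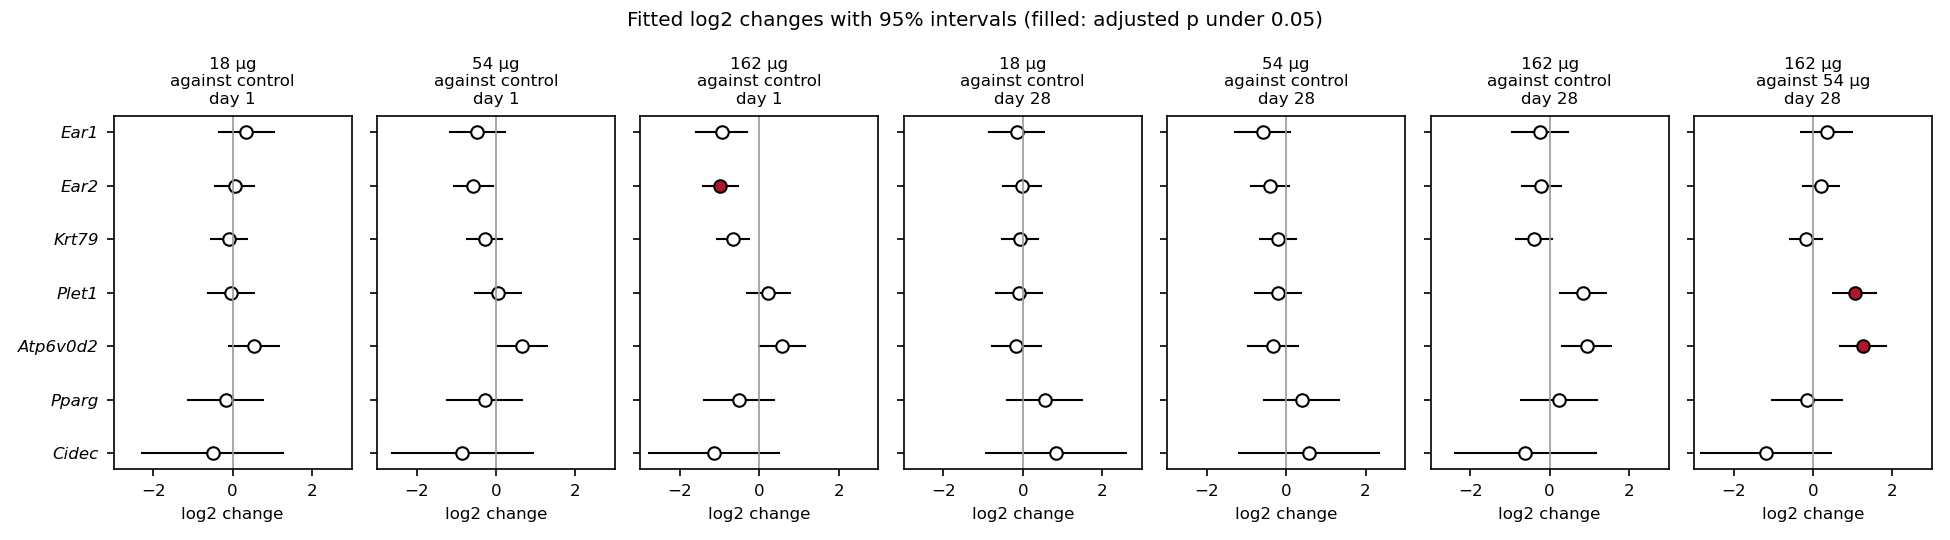
Fitted log2 change of each gene (horizontal axis, point) with its 95% interval (line) in 7 comparisons of groups. Filled points passed an adjusted p of 0.05: Ear2 at 162 µg on day 1 (-0.98), and Plet1 (1.05) and Atp6v0d2 (1.26) at 162 µg against 54 µg on day 28. The intervals of Cidec are the widest of the 7 genes.

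Next, the members were compared with each other from mouse to mouse, after the mean of each dose and day group was subtracted. They did not move as 1 set. Ear1 and Ear2 rose and fell together (Pearson r = 0.77, permutation p = 0.00101, adjusted over 21 pairs 0.00508, and Spearman rho 0.72, permutation p = 0.00147, adjusted 0.00539, over 29 mice). Plet1 followed Atp6v0d2 (r = 0.68, permutation p = 0.00087, adjusted 0.00508, rho 0.69, permutation p = 0.00073, adjusted 0.00511), and Ear1 followed Atp6v0d2 (r = 0.65, permutation p = 0.00121, adjusted 0.00508, rho 0.64, permutation p = 0.00127, adjusted 0.00539). Without the 2 mice farthest from the median of the first gene, r was 0.69, 0.58 and 0.54. Without muscle arrays, over 17 mice, it was 0.70 for Ear1 with Ear2 and 0.71 for Ear1 with Atp6v0d2 but 0.26 for Plet1 with Atp6v0d2. In 3 sets of 8 mice, those of slide 3, of slide 4, and of slides 1 and 5 pooled because 7 mice were on both, r ran from 0.79 to 0.96, from 0.49 to 0.76 and from 0.65 to 0.78 for these pairs. Slide 2 held 5 mice, too few for a correlation. Within the 6 mice of high adipocyte score, described next, and within the other 23, r was 0.95 and 0.64 for Ear1 with Ear2, 0.52 and 0.37 for Plet1 with Atp6v0d2, and 0.22 and 0.43 for Ear1 with Atp6v0d2. Krt79 passed with no other member, and its r with them ran from -0.03 to 0.40.

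Cidec and Pparg shared the same high mice. In 6 mice both stood above their group mean, Cidec by 1.36 to 2.18 and Pparg by 0.50 to 1.34, and in the other 23 Cidec was at most 0.58 and Pparg at most 0.37 above it. These were replicate 2 at 0 µg, replicate 3 at 18 µg, replicate 2 at 54 µg and replicate 3 at 162 µg on day 1, and replicate 4 at 18 µg and replicate 3 at 54 µg on day 28. Because the mice fall into 2 clusters for Cidec, r was read within them: for Pparg with Cidec it was 0.45 in the 6 and 0.63 in the 23. For Atp6v0d2 with Cidec it was -0.69 and -0.36.

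The same 6 mice had the highest adipocyte scores for their groups. The score is the mean log2 ratio over 12 adipocyte genes, among them Adipoq, Cfd, Plin1, Retn and Ucp1, and Pparg and Cidec are not in it. It lay at least 1.19 above the group mean in these 6 and at most 0.85 in the other 23, and 5 of the 6 had a muscle array. Across the 23, r with the score was 0.72 for Cidec and 0.43 for Pparg, and across the 6 it was 0.42 and 0.10. Another 3 members were lower in mice of higher score. These were Atp6v0d2 (r = -0.77, permutation p = 0.00023, adjusted over 7 genes 0.000525, rho -0.77, permutation p = 0.00013, adjusted 0.000455), Ear1 (r = -0.75, permutation p = 0.0003, adjusted 0.000525, rho -0.72, permutation p = 0.00043, adjusted 0.000752) and Plet1 (r = -0.64, permutation p = 0.00159, adjusted 0.00223, rho -0.60, permutation p = 0.00335, adjusted 0.00469).

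For Ear2 r was -0.49 (permutation p = 0.021, adjusted 0.0245) and rho -0.38 (permutation p = 0.0754, adjusted 0.088), and for Krt79 r was -0.22 (permutation p = 0.253) and rho -0.28 (permutation p = 0.18, adjusted 0.18). Without the 2 mice farthest from the median score, r was -0.72, -0.67, -0.64, -0.39 and -0.09 for Atp6v0d2, Ear1, Plet1, Ear2 and Krt79. Within the 23 mice of lower score it was -0.46, -0.56, -0.29, -0.22 and -0.26, and within the 6 of high score -0.51, -0.58, 0.03, -0.35 and -0.41. For Plet1 the relation was thus not seen within the 6 mice. In the same 3 sets of mice by slide it was below 0 in each for all 5 genes and above 0 in each for Cidec (0.89 to 0.98) and Pparg (0.74 to 0.97). Without muscle arrays, over 17 mice, r was 0.74 for Cidec, 0.56 for Pparg and -0.70 to -0.46 for the other 5. These relations were looked for after the values of Cidec were seen, and how much of each transcript came from fat was not tested.

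**Figure D3:**
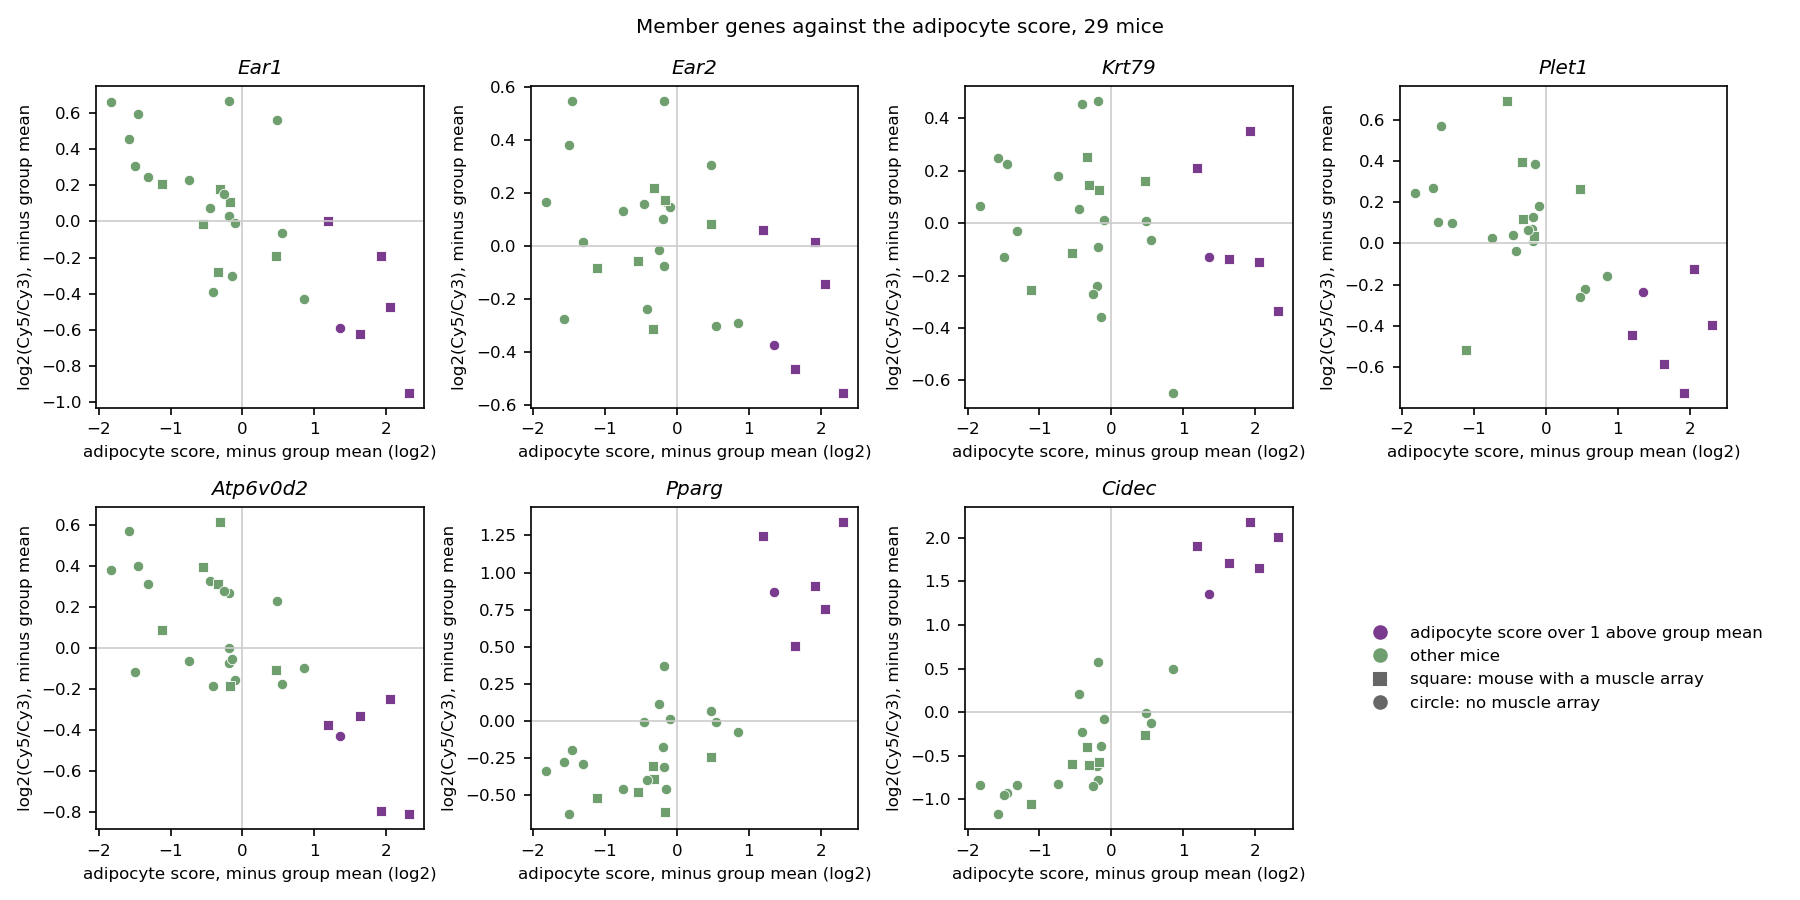
Each gene's log2(Cy5/Cy3) minus its group mean (vertical axis) against the adipocyte score minus its group mean (horizontal axis) in 29 mice. The 6 purple mice, with scores at least 1.19 above their group mean, are the 6 highest for Cidec and for Pparg, and all 6 are below their group mean for Atp6v0d2 and Plet1.

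Genes were also ranked by r with the mean of the 7 members' values (each divided by its SD) over 29 mice. Pparg and Cidec ran against the mean of the other members (r = -0.39 and -0.485). For the remaining members this r ran from 0.12 (Plet1) to 0.53 (Ear2). A high rank is thus likeness to the mean and not to each member. Among 15162 genes with a symbol, the highest were Gal (0.82), Ang (0.82), Ablim3 (0.80), Ccrl2 (0.80) and Map7d3 (0.78). Brd3 (0.77), Siglecf (0.77), Pik3r6 (0.76), Rasd2 (0.75) and Lalba (0.75) followed. The r of each of these genes with the muscle score was negative, from -0.544 (Siglecf) to -0.201 (Rasd2). How much of their likeness to the mean came with muscle content was not tested. Siglecf encodes a sialic acid-binding lectin used to gate alveolar macrophages. It was 2.55 ± 0.24 in the controls of day 1 and 2.04 ± 0.34 at 162 µg (SD, n = 4 and 4), a log2 change of -0.50 (adjusted p = 0.525).

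Of 9 ribonuclease family genes listed besides Ear1 and Ear2, 2 were measured. Ear6 rose at 162 µg on day 1 by 0.88 (SE 0.16, adjusted p = 0.00239), from 0.18 ± 0.12 to 1.06 ± 0.32 (SD, n = 4 and 4), and on day 28 by 1.08 (SE 0.17, adjusted p = 0.00164). Its probe was dim (log2 Cy5 of 6.55 to 8.44), and the size of the rise varied with the setting. Alternatives gave 0.76 to 1.74 on day 1 and 1.01 to 2.12 on day 28. Ear10 changed by -0.91 (SE 0.27, adjusted p = 0.0882) on day 1, near the values of Ear1 and Ear2, and by -0.17 on day 28. Eosinophils also carry these ribonucleases, and of 8 eosinophil markers the peroxidase gene Epx was above background on 0 of 36 arrays and the granule protein gene Prg3 on 1. The other 6 were above background on 17 (Ccr3) to 36 (Il5ra and Siglecf) arrays, with Prg2 on 21. At 162 µg on day 1, where 1.7% of all genes were called, none of the 6 that passed the filter, Siglecf among them, fell and 1 rose. This was Cebpe, a transcription factor gene of granulocytes (0.91, adjusted p = 0.0135, and 0.0717 without 162 µg replicate 4). The mean log2 Cy5 over the list was 6.89 to 6.99 in the controls of day 1 and 6.90 to 7.24 at 162 µg.

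Of 24 other alveolar macrophage markers, at 162 µg on day 1, 1 fell and 1 rose, with 17 of 24 below 0 and a median log2 change of -0.15. Over all genes tested, 1.7% were called there and 48.7% were below 0. Fabp1, a fatty acid-binding protein gene, fell by 1.77 (SE 0.39, adjusted p = 0.0135), and Itgax, the integrin CD11c, rose by 0.68 (SE 0.16, adjusted p = 0.0270). At day 28, 1 rose, the cysteine protease gene Ctsk (1.22, SE 0.24, adjusted p = 0.0104), and none fell, with 8 of 24 below 0 and a median of 0.10. Over all genes tested, 0.632% were called at 162 µg on day 28 and 49.8% were below 0. Neither 54 µg nor 18 µg had a call in this list on either day. These calls depended on single mice: that of Fabp1 was lost without 162 µg replicate 1 or replicate 4, that of Itgax in 10 of 21 settings, among them without any of control replicates 1, 2 and 4 or 162 µg replicates 1, 2 and 4, and that of Ctsk without control replicate 1 or 2 or 162 µg replicate 2.

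Upstream of the members, 20 of 21 listed genes of GM-CSF and TGF-beta signalling and of the transcription factors of this cell were measured. At 162 µg on day 1, 3 rose and 0 fell (median log2 change 0.25). Over all genes tested, 1.7% were called there, and 0.632% at 162 µg on day 28. Csf2rb, the common beta chain of the GM-CSF receptor, rose by 0.78 (SE 0.14, adjusted p = 0.00156), its mouse paralogue Csf2rb2 by 0.70 (SE 0.14, adjusted p = 0.00822), and Cebpb, a transcription factor of the C/EBP family, by 0.57 (SE 0.13, adjusted p = 0.0208). At day 28, 2 rose and 0 fell: Csf2rb by 0.84 (SE 0.15, adjusted p = 0.00304) and Csf2rb2 by 0.90 (SE 0.15, adjusted p = 0.00286). Csf2rb was 0.68 to 1.07 in the controls of day 1 and 1.28 to 1.77 at 162 µg, and 0.78 to 0.95 and 1.52 to 2.03 on day 28. Csf2rb and Csf2rb2 were called higher at 162 µg on both days, and Ear2 was called lower on day 1. Whether these changes are linked, and which cells carried the Csf2rb and Csf2rb2 transcripts, was not tested. Leaving out any 1 mouse kept the calls of Csf2rb and Csf2rb2 on both days, and that of Cebpb was lost without control replicate 1 or 4 or without 162 µg replicate 1, 2 or 4.

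Downstream, none of 18 PPAR-gamma target genes, 14 lipid droplet genes or 19 measured subunits of the vacuolar proton pump passed at any dose against its control. Their medians at 162 µg were -0.18, -0.16 and 0.15 on day 1 and 0.13, 0.17 and 0.08 on day 28. Among the pump subunits on day 28, Tcirg1, the a3 subunit known from osteoclasts, stood at 0.61 (adjusted p = 0.426) where Atp6v0d2 stood at 0.93. At 162 µg against 54 µg on day 28, where Atp6v0d2 was called, 1 of these 19 subunits was called as well, and it was Tcirg1 (0.79, SE 0.19, adjusted p = 0.0386). Over all genes tested, 1.02% were called in that comparison. Tcirg1 was named after its values were seen. None of 12 monocyte and 12 interstitial macrophage markers measured passed against a control (medians 0.27 and 0.04 on day 1, 0.05 and 0.35 on day 28, at 162 µg). Of 11 neutrophil markers measured 1 rose at 162 µg on day 1, the collagenase gene Mmp8 (1.02, adjusted p = 0.0159), a call lost without control replicate 4 or without 162 µg replicate 1, 2 or 4. In that comparison 1.7% of all genes tested were called. None of 12 alveolar type II cell markers passed, with medians of -0.10 on day 1 and 0.09 on day 28.

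**Figure D4:**
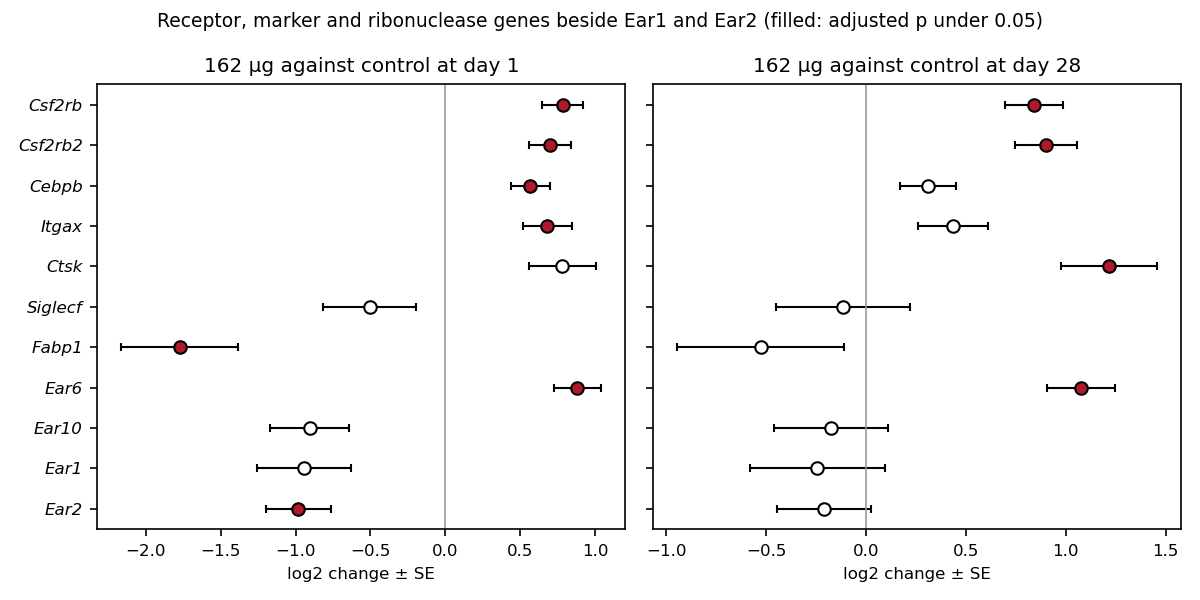
Log2 change at 162 µg against control (horizontal axis, point ± SE) on day 1 and day 28 for receptor, marker and ribonuclease genes beside Ear1 and Ear2. Filled points passed an adjusted p of 0.05: Csf2rb, Csf2rb2 and Ear6 rose on both days, while Ear2 (-0.98) and Fabp1 (-1.77) fell on day 1 and did not pass on day 28. Cebpb (0.57) and Itgax (0.68) passed on day 1 only and Ctsk (1.22) on day 28 only.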

How the data were processed

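Lung RNA (Cy5) and a universal reference RNA (Cy3) were hybridised on 2-colour arrays with no dye swap, per the labels. The deposited files are output of Agilent Feature Extraction 11.0.1.1, per the file headers, with median spot and background intensities and the software's processed signals, all linear. The authors' deposited value table holds log2 ratios with array medians of -0.039 to -0.017, in the same direction as the scanner ratios (r = 0.986 to 0.997 over probes); its normalization is not given in the sources used here.

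Intensities were corrected with normexp (offset 50), normalized by loess within arrays and averaged per probe and mouse, with outlier spots left out. Names came from RefSeq accessions (GRCm38.p6). Median spot signals were used, since the files used here hold no spot means. Genes stayed in the test if some group had 3 or more mice whose arrays all showed the probe well above background in Cy5. A single limma fit (limma 3.58.1, R 4.3.3) took 29 mice and estimated each group's mean, with 21 residual degrees of freedom. Calls took a two-sided Benjamini-Hochberg adjusted p under 0.05 per comparison over all 23256 genes. In simulated counterparts of the 162 µg day 1 comparison over 23256 genes, the fit recovered 82% of changes of 1 and 96% of changes of 2 (log2). The SEs of the members in the real comparison ran from 0.20 (Krt79) to 0.80 (Cidec), so these shares need not hold for each member.

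Correlations used 100000 permutations of mice within groups. Promoter windows were aligned with Biopython 1.88. The arrays were scanned on 5 slides; slides 1 and 5 share 7 mice and were 1 block in the slide fit. The members and gene lists were chosen with earlier results of these data known. Genes outside the members were named where called (up to 3 per list), as the 10 most alike, or as absent defining markers; Ear10 and Tcirg1, outside this rule, were named after their values were seen. Alternatives changed the normalization, filter, slide block, covariates, weights, the mouse of conflicting labels and each mouse left out. The number of arrays limits the precision.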

Additional observations from a re-analysis of the deposited data

Results flagged for a closer look

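In groups of 4 mice, a mouse was marked when its gap to the nearest other mouse made up most of the group's range. Chance marks about 1 in 20 such groups, and 35 were tested. Replicate 3 at 54 µg on day 28 was marked for 4 genes: it was low for Ear2 (5.911) and Krt79 (2.894) and high for Pparg (2.604) and Cidec (6.153). Replicate 2 of the day 1 controls was marked high for Pparg (2.707). Both mice had a muscle array and were among the 6 with adipocyte scores far above their group mean.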

How the results depend on the processing

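At 162 µg against control on day 1 the count of members called, 1 as reported, was 0 with the processed signals, with median centring and without muscle arrays, 2 with muscle and squamous scores or (added after seeing the data) the adipocyte score as covariates, and 4 with array quality weights. Leaving out 1 mouse gave 0 to 2. Ear2 was below 0 in 21 of 21 alternatives (-1.32 to -0.61, adjusted p from 0.00253 to 0.435) and Ear1 in 21 of 21 (-1.72 to -0.27). With the mouse of conflicting labels placed in day 1, the change of Ear2 was -0.83 (adjusted p = 0.0721) and Krt79 passed (adjusted p = 0.0308). At 162 µg on day 28 the count, 0 as reported, was 2 without muscle arrays, with array quality weights and in a fit of these groups alone, and 1 with the adipocyte score; leaving out 1 mouse gave 0 throughout. At 162 µg against 54 µg on day 28 the count of 2 was 1 with the processed signals, median centring, the deposited value table, no filter on dim probes, the mean of all probes, the mouse of conflicting labels left out, the adipocyte score, or these groups alone. It was 0 without muscle arrays, with muscle and squamous scores, or with that mouse in day 1, and 0 to 2 with 1 mouse left out. The cause of these shifts was not tested beyond the smaller number of samples that some settings leave. The counts of the other 9 comparisons stayed at 0 in every alternative run, and no called change reversed sign. Genes outside the members also lost calls at 162 µg on day 1, in 2 of 21 settings for Csf2rb, Csf2rb2 and Ear6 (without muscle arrays, and these groups alone), 4 for Cebpe, 7 for Mmp8 and Fabp1, 9 for Cebpb and 10 for Itgax. On day 28 Ctsk lost its call in 4 of 20 settings and Csf2rb, Csf2rb2 and Ear6 in 0. Calls over all genes at 162 µg on day 1, 395 as reported, were 169 after median centring, 641 given muscle and squamous scores, 2507 under array weights and 235 once the doubly labelled mouse counted as day 1. On day 28, where 147 were reported, they were 88 with processed signals, 235 without muscle arrays and 581 with array weights. Median centring put the median log2 change of all genes at 0.23 for 54 µg and 0.11 for 18 µg on day 1, and at 0.17 for 162 µg against 54 µg on day 28. No paired analysis was possible because the labels give each mouse a number of its own, shared by no other group.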
